A study of Mus musculus with 20 samples.

Results

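The dual-specificity MAP kinase phosphatases described here were Dusp1, Dusp4, Dusp5, Dusp6, Dusp7, Dusp8, Dusp10, Dusp14 and Dusp16, which are 9 of the 30222 gene names on the array. They were taken as every non-control probe that the later array annotation assigns to one of these names, which gave 13 probes among 43020 non-control spots and at least 1 probe for each gene. Under the normalisation used here, Dusp14 was the member with the largest change. It rose after 5 hr of the 18/1 pattern and after 2 hr of the 90/5 pattern, whereas Dusp7 fell after 5 hr of the 18/1 pattern. These stimulated samples lay on another array slide than the unstimulated ones, so slide and condition cannot be told apart in these differences. The Dusp7 fall was seen with 1 of its 2 probes, and the Dusp14 call at 90/5 2 hr was lost when any 1 of 3 arrays was left out. By the probe used for each gene, no other member passed the test against unstimulated neurons. Another Dusp8 probe was lower at 18/1 5 hr (log2 difference -1.28, limma adjusted p = 0.0132 among 23905 probes).

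The study asked whether different temporal patterns of action potentials regulate different genes, and measured 20 samples of cultured mouse dorsal root ganglion (DRG) neurons on 10 two-colour arrays. All samples came from NIH Swiss embryos at day 13.5, and were grown with nerve growth factor, serum and an inhibitor of dividing cells; the growth notes name the spinal cord as the tissue dissociated, while the cell type is given as DRG neurons. One condition was left unstimulated. Stimulated neurons received biphasic pulses of 6 V and 0.2 ms, delivered either as 18 action potentials every 1 min (18/1) or as 90 every 5 min (90/5), so that the total number was the same, for 2 hr or 5 hr. Each of the 5 conditions had 4 samples on 2 arrays, and both colours of an array held the same condition. The authors call the 4 samples of a condition biological replicates. Per the methods, 5 cultures were pooled per condition, without a statement of how the pools were divided among the 4 samples. The p-values measure a spread estimated over all 20 samples together, with the array as a block. Conditions outside a comparison therefore also enter its standard error. How much of the spread is technical is not known.

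MAP kinase phosphatases remove the phosphates from both the threonine and the tyrosine of an active MAP kinase, and so switch it off. Several of them are themselves transcribed in response to the kinases they act on, which makes them feedback inhibitors of the pathway. Dusp1, Dusp4 and Dusp5 are nuclear and inducible. Dusp6 and Dusp7 are cytoplasmic and prefer ERK, the MAP kinase that couples electrical activity and neurotrophins to transcription in neurons. Dusp8, Dusp10 and Dusp16 prefer the stress-activated kinases JNK and p38. Dusp14 is a small atypical phosphatase that lacks the MAP kinase-binding domain of the others.

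The labelled cell type was checked against marker genes. All 7 neuronal markers measured and all 9 sensory neuron markers were well above background in all unstimulated samples, and 8 of the 9 were after 18/1 stimulation for 5 hr. Fibroblast markers were also present, 6 of 6 in unstimulated samples and 5 of 6 after 18/1 for 5 hr. Their log2 summed signal was 14.08 to 15.45 in unstimulated samples and 16.03 to 16.23 after 18/1 for 5 hr, against 14.78 to 15.76 at 18/1 2 hr, while it was 14.38 to 16.31 and 14.37 to 15.45 in the 2 and 5 hr samples of 90/5. Of 7 markers of Schwann cells and satellite glia, 5 were well above background in all unstimulated samples and 4 or 5 in each stimulated condition. Their log2 summed signal was 16.05 to 16.20 without stimulation and 14.94 to 16.35 after 18/1 for 5 hr, and Erbb3 was the marker not well above background in any sample. All 5 macrophage markers were present in unstimulated samples (14.34 to 14.90) and 4 of 5 after 18/1 for 5 hr (13.36 to 14.86). Endothelial markers summed to 11.15 to 11.71 without stimulation and 9.19 to 9.73 after 18/1 for 5 hr, with 2 and 1 of 3 above background in all samples, while 3 astrocyte markers summed to 8.65 to 9.17 and 9.76 to 11.15, again with 2 and 1. Dividing cell markers summed to 8.94 to 9.07 and 8.96 to 10.52 in these conditions, and 2 motor neuron markers to 7.68 to 7.93 and 7.70 to 9.56, with neither of the latter above background in all unstimulated samples and 1 after 18/1 for 5 hr. The part of these other cell types in the results below was not tested. In whole cultures, fewer cells of a type and less RNA per cell cannot be told apart.

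Arrays lay on 3 slides. The unstimulated and 18/1 2 hr samples shared slide 1, the 18/1 5 hr and 90/5 2 hr samples shared slide 2, and the 90/5 5 hr samples were alone on slide 3. Slide and condition therefore cannot be told apart except between conditions on the same slide. Arrays 5, 6 and 8 of slide 2 stood apart by the scanner software's mark for non-uniform spots, which fell on 3138 to 14642 spots of each sample, against 45 and 139 on array 7 of the same slide. Samples of slide 1 had 6 to 36 such spots, and those of slide 3 had 37 to 85. On slide 2 the median spot was 3.64 to 10.4 times its background, with array 7 lowest. It was 2.27 to 2.94 times background in the samples of slide 1, while the 90/5 5 hr samples of slide 3 gave 2.66 to 4.91.

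Signals are given as log2 of the normalised spot intensity, each from the brightest probe of a gene that passed the filter below, and differences as log2 differences with the standard error (SE) of the fit. A level can be compared between samples for one probe, but not between probes. A gene is called changed where limma's adjusted p (Benjamini-Hochberg over all genes tested in that comparison) was under 0.05. Dusp7, Dusp8, Dusp14 and Dusp16 were at least 2 times background and free of non-uniform marks in all 20 samples, and were tested among the 10355 gene names that passed this filter. Dusp1, Dusp4, Dusp6 and Dusp10 passed in all 4 samples of at least 1 condition and were tested among the 18744 gene names that did so. For 3 of these 4 the spots failed elsewhere through the non-uniform mark alone, and Dusp4 failed through dim spots in unstimulated samples and 1 non-uniform spot at 18/1 5 hr. Dusp5 passed in no condition and was not tested.

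Dusp14 was read by 1 probe, A_55_P2063216, which the array annotation places at chr11:83861916-83861975 on the minus strand (mm9). Its first 30 bases are shown because this probe carries the largest change of any member under the normalisation used here.
Dusp14 A_55_P2063216, first 30 bases: cgtgcgttgcctgtgacgttttttaaaact
Unstimulated neurons gave Dusp14 signals of 9.93, 9.63, 9.41 and 9.69 (mean 9.66 ± 0.21 SD, n = 4). After 5 hr of 18/1 stimulation the samples read 12.12, 11.80, 11.35 and 11.22 (11.62 ± 0.42). All 4 lay above every unstimulated sample, and the difference was 1.96 ± 0.30 (SE), a 3.89-fold rise (95% interval 1.34 to 2.58 on the log2 scale; limma adjusted p = 4.52e-05).

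The 18/1 pattern for 2 hr gave Dusp14 signals of 10.31, 9.62, 10.16 and 10.41, which overlapped the unstimulated range. Dusp14 was higher at 5 hr than at 2 hr of this pattern by 1.50 ± 0.30, a 2.82-fold difference (limma adjusted p = 0.00052), with no overlap between the samples, but by 0.77 (adjusted p = 0.0783) when samples were only centred on their medians. The 90/5 pattern for 2 hr gave 10.71, 10.64, 11.54 and 11.15. These 4 samples were above all unstimulated samples by a mean of 1.34 ± 0.30, or 2.54-fold (limma adjusted p = 0.00804), and above all 18/1 2 hr samples by 0.88 ± 0.30, which did not pass (adjusted p = 0.0908). The latter difference was 0.55 without array 8 and 1.22 without array 7, and passed without array 5 (limma adjusted p = 0.0259), 6 (0.0263) or 7 (0.0096). The call at 90/5 2 hr was lost without array 1 (limma adjusted p = 0.0948), array 2 (0.145) or array 8 (0.132).

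After 5 hr of the 90/5 pattern, Dusp14 read 11.13, 11.08, 10.85 and 10.60. Every one of these samples exceeded the unstimulated range, with a difference of 1.25 ± 0.30 (limma unadjusted p = 0.000381) and an adjusted p of 0.192. When the samples of slide 2 were left out of the fit, the same difference had an adjusted p of 0.00578. It also passed without array 5 (limma adjusted p = 0.0339) or 6 (0.0344) alone. Dusp14 was lower at 90/5 5 hr than at 18/1 5 hr by 0.71 (log2 difference -0.71 ± 0.30, 95% interval -1.33 to -0.09; limma adjusted p = 0.056), with no overlap, but this difference was 0.16 when samples were only centred on their medians. It was -0.37 without array 5 and -1.05 without array 6, with limma adjusted p of 0.00726 to 0.35 over the 30 fits that left out a sample or array, and was called in 7 of them. Ordered by mean level, 18/1 5 hr, 90/5 2 hr and 90/5 5 hr came first and overlapped one after the other, then 18/1 2 hr and unstimulated, which overlapped each other. The samples of 90/5 5 hr and 18/1 2 hr were the neighbours that did not overlap.

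**Figure D1:**
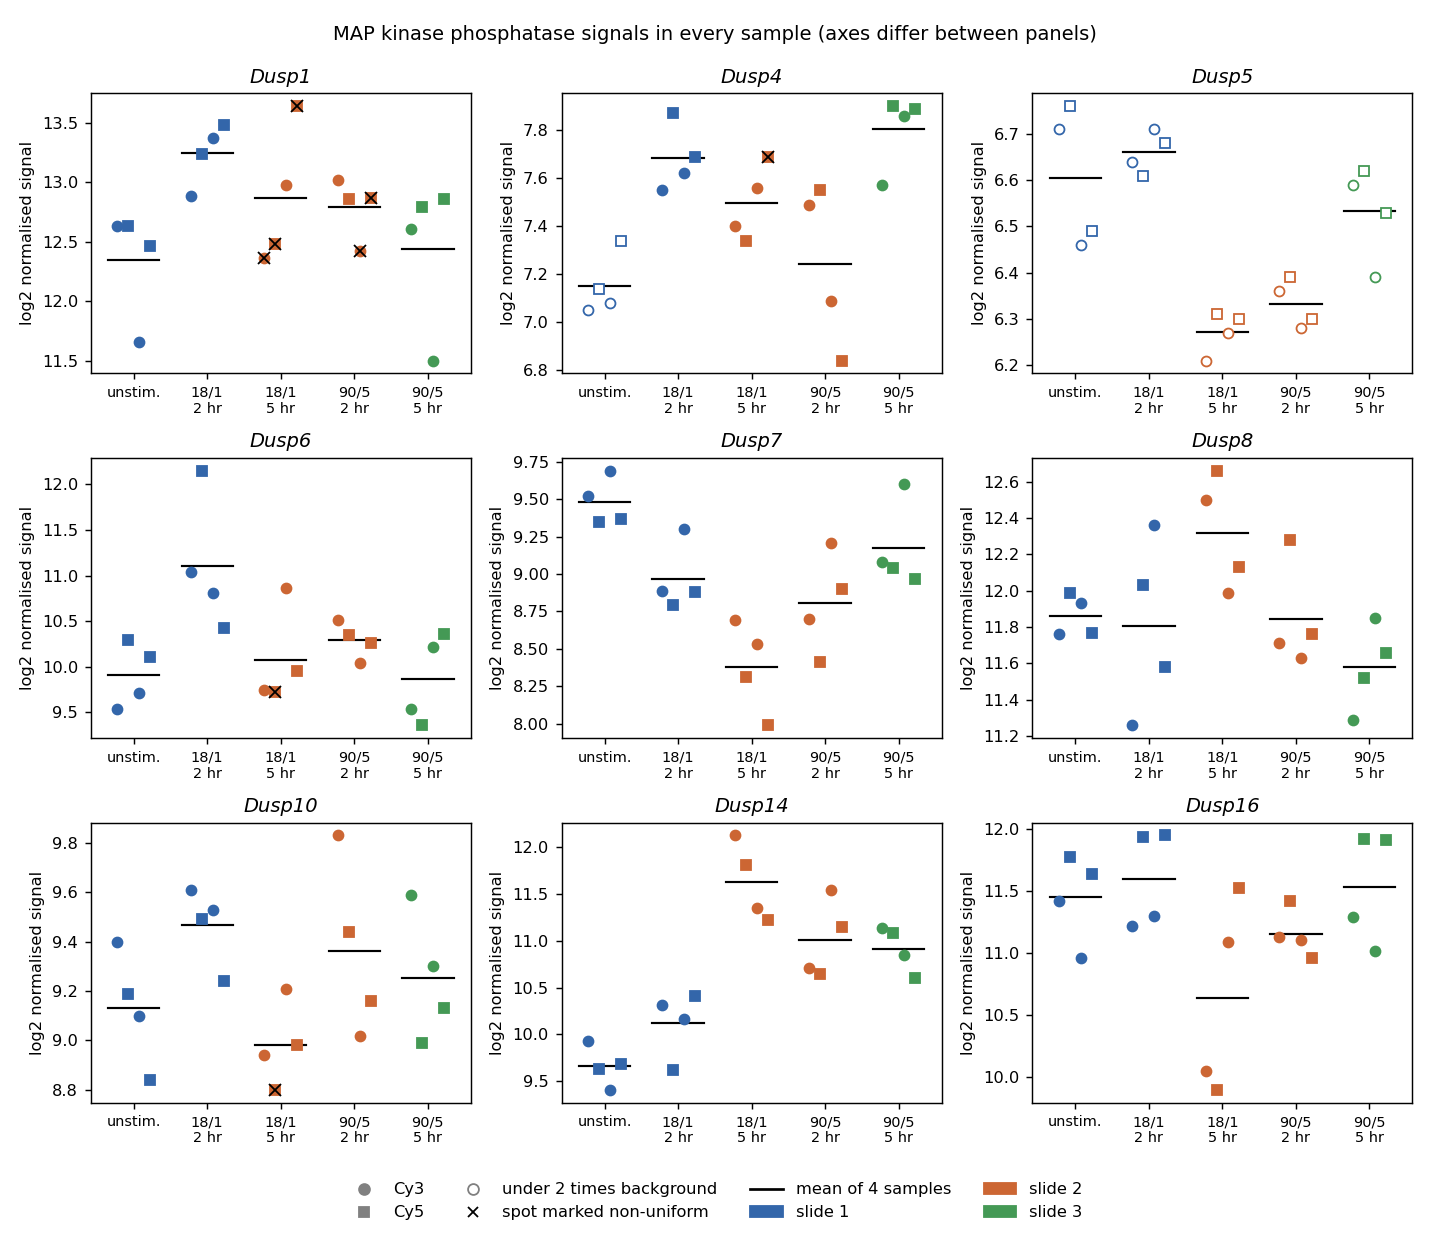
Log2 normalised signal (vertical axis, its range differing between panels) of each MAP kinase phosphatase in the 20 samples, grouped by condition, with 1 point per sample coloured by slide and shaped by dye, and a black line at the mean; open points are under 2 times background and crosses mark non-uniform spots. Dusp14 lies above its unstimulated samples in 3 of the 4 stimulated conditions, Dusp7 lies lowest at 18/1 5 hr, and Dusp5 stays near background throughout.

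Dusp7, a cytoplasmic ERK phosphatase, has 2 probes whose listed positions overlap on the plus strand of chromosome 9 (mm9): A_55_P2000628 at chr9:106277943-106278000 and A_55_P1993836 at chr9:106277985-106278044. The end of the former lies over the start of the latter, and the last 30 and first 30 bases are shown because the probes gave different results. Capitals mark the longest run of bases that they share, 15 in all.
Dusp7 A_55_P2000628, last 30 bases: gacacacacacacatACACATATATATCCC
Dusp7 A_55_P1993836, first 30 bases: cACACATATATATCCCgagccagcaacggg
With A_55_P1993836, the probe whose spots passed in all 20 samples, unstimulated neurons read 9.52, 9.35, 9.69 and 9.37 (9.48 ± 0.16 SD, n = 4). The 18/1 5 hr samples read 8.69, 8.31, 8.53 and 7.99 (8.38 ± 0.30), all below every unstimulated sample. Dusp7 fell 2.15-fold (log2 difference -1.10 ± 0.23, 95% interval -1.58 to -0.62; limma adjusted p = 0.000753).

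The other stimulated conditions lay between. Dusp7 read 8.89, 8.79, 9.30 and 8.88 at 18/1 2 hr, 8.70, 8.41, 9.21 and 8.90 at 90/5 2 hr, and 9.08, 9.04, 9.60 and 8.97 at 90/5 5 hr. Both 2 hr conditions were below all unstimulated samples, with differences of -0.52 ± 0.23 (limma adjusted p = 1) and -0.68 ± 0.23 (adjusted p = 0.0769) that did not pass. The latter passed without array 5 (limma adjusted p = 0.0274), 6 (0.0236) or 8 (0.0475, with a difference of -0.93), and was -0.43 without array 7. Dusp7 was 0.59 lower at 5 hr than at 2 hr of the 18/1 pattern (-0.59 ± 0.23; limma adjusted p = 0.0439), and 0.79 ± 0.23 higher at 90/5 5 hr than at 18/1 5 hr (adjusted p = 0.00813), without overlap in either. The former call was lost in 15 of the 30 fits that left out a sample or array, with a limma adjusted p of up to 0.285 and a difference of -0.46 without array 4. It was also lost in 11 of 15 other settings, among them quantile normalisation (adjusted p = 0.0801), no background subtraction (0.0812) and leaving out saturated probes (0.0508), all with the same probe. The latter was lost without array 10 (limma adjusted p = 0.0854).

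The second Dusp7 probe did not give the same differences. A_55_P2000628 read 9.21, 9.36, 9.44 and 9.47 in unstimulated neurons and 9.31, 9.31, 8.61 and 8.39 at 18/1 5 hr, where array 5 gave the higher pair and array 6 the lower. Its difference was -0.47 (limma adjusted p = 0.213 among 23905 probes), and between 90/5 5 hr and 18/1 5 hr it was -0.06 (adjusted p = 0.89). The Dusp7 calls thus rest on 1 of the 2 probes.

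Dusp6, the other cytoplasmic ERK phosphatase and a target of ERK signalling, was read by A_51_P502614 at chr10:98729985-98730044 on the plus strand (mm9). It gave 9.54, 10.29, 9.71 and 10.11 in unstimulated neurons and 11.04, 12.15, 10.81 and 10.43 at 18/1 2 hr. The groups did not overlap, and the difference of 1.19 ± 0.51, or 2.29-fold, had an unadjusted p of 0.0305 and a limma adjusted p of 1. It was 0.71 without array 3 and 1.68 without array 4. In the later and the 90/5 samples Dusp6 overlapped unstimulated neurons, reading 9.72 to 10.87 at 18/1 5 hr, 10.04 to 10.51 at 90/5 2 hr and 9.36 to 10.36 at 90/5 5 hr. At 18/1 5 hr its spot was marked non-uniform in the Cy5 sample of array 5.

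Of the nuclear inducible members, Dusp1 is an immediate early gene that acts on JNK, p38 and ERK. Its probe A_51_P430900 is listed at chr17:26642526-26642536 on the minus strand (mm9), which covers 11 bases only. Dusp1 read 12.63, 12.63, 11.66 and 12.46 without stimulation and 12.88, 13.24, 13.37 and 13.48 at 18/1 2 hr. All samples of the latter were higher, by 0.90 ± 0.42 or 1.87-fold (unadjusted p = 0.0441; limma adjusted p = 1), and without array 2, which held the lowest unstimulated sample, the difference was 0.62. At 18/1 5 hr (12.36 to 13.64), 90/5 2 hr (12.42 to 13.02) and 90/5 5 hr (11.50 to 12.86) Dusp1 overlapped the unstimulated range. Its spot was marked non-uniform in both samples of array 5 and the Cy5 sample of array 6 at 18/1 5 hr. The same mark fell on both samples of array 8 at 90/5 2 hr, so the spot passed the filter in neither condition.

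Dusp4, a nuclear phosphatase of ERK, JNK and p38 induced by ERK signalling, was dim. Its probe A_51_P518051 (chr8:35882045-35882104, plus strand, mm9) was 1.36 to 1.86 times background in unstimulated samples, below the limit of 2, although the scanner software marked all 4 as well above background. The signals were 7.05, 7.14, 7.08 and 7.34 without stimulation, 7.55, 7.87, 7.62 and 7.69 at 18/1 2 hr, and 7.57, 7.90, 7.86 and 7.89 at 90/5 5 hr. Both stimulated groups lay above the unstimulated one, by 0.53 ± 0.23 (limma unadjusted p = 0.0328, adjusted p = 1) and 0.65 ± 0.23 (unadjusted p = 0.0101, adjusted p = 0.999). Neither difference passed.

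At 18/1 5 hr and 90/5 2 hr the Dusp4 signals, 7.34 to 7.69 and 6.84 to 7.55, reached or overlapped the unstimulated range. At 90/5 2 hr the spot was 3.21 to 3.81 times background, but the scanner software marked it as well above background in 1 of the 4 samples only, so each Dusp4 difference from that condition is uncertain. Dusp4 was 0.56 ± 0.23 higher at 5 hr than at 2 hr of the 90/5 pattern, with no overlap (limma unadjusted p = 0.0233, adjusted p = 0.147). Without array 7 this difference was 0.84 (adjusted p = 0.011) and without array 8 it was 0.29 (0.677), and it passed without array 5 (0.0459) or 6 (0.0476). Dusp4 passed the filter in 3 stimulated conditions only (1 of its spots at 18/1 5 hr was marked non-uniform), so its place among the members tested rests on them, and spots on slide 2 were generally farther above background.

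Dusp5, a nuclear phosphatase selective for ERK, was read by A_55_P2063237 (chr19:53615682-53615741, plus strand, mm9). It was 0.887 to 1.54 times background and not well above background in any of the 20 samples. Its condition means ran from 6.27 ± 0.05 at 18/1 5 hr to 6.66 ± 0.05 at 18/1 2 hr (SD, n = 4). No fold is given for it.

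Among the members that prefer JNK and p38, Dusp16 was read by A_66_P116252 (chr6:134665783-134665842, minus strand, mm9). Its first 30 bases are shown because its 18/1 5 hr values differed between arrays.
Dusp16 A_66_P116252, first 30 bases: ctgtcagtccttcgtcactaatgtcgtatc
Dusp16 read 11.42, 11.78, 10.96 and 11.64 in unstimulated neurons, 11.22, 11.94, 11.30 and 11.95 at 18/1 2 hr, and 10.05, 9.90, 11.09 and 11.53 at 18/1 5 hr. The pair of array 5 was low and the pair of array 6 lay within the unstimulated range. The difference of 18/1 5 hr from unstimulated was -0.81 ± 0.35 (limma adjusted p = 0.0625), and -1.47 without array 6 (adjusted p = 0.000405).

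Dusp16 was called lower at 5 hr than at 2 hr of the 18/1 pattern, by 0.96 (-0.96 ± 0.35; limma adjusted p = 0.0294), and higher at 90/5 5 hr than at 18/1 5 hr, by 0.89 ± 0.35 (adjusted p = 0.0399). Without array 5 the differences were -0.29 and 0.23, and that from unstimulated was -0.14. The first call was kept in 22 and the second in 19 of the 30 fits that left out a sample or array, with limma adjusted p of up to 0.411 and 0.528. They were lost in 8 and 9 of 15 other settings, among them no colour term (adjusted p = 0.0549 and 0.0726), means of arrays (0.0658 and 0.0806) and fits on only the conditions compared (0.0796 and 0.141). At 90/5 2 hr (10.96 to 11.42) and 90/5 5 hr (11.02 to 11.92) Dusp16 overlapped unstimulated neurons. A second Dusp16 probe, A_52_P492081 (chr6:134668003-134668062), was dimmer, reached 2 times background in 13 samples, was marked well above background in 1 of the 4 at 18/1 5 hr, and differed by -0.29 at 18/1 5 hr (limma adjusted p = 0.352). With this probe the 2 called differences were -0.48 (adjusted p = 0.118) and 0.21 (0.516).

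Dusp8, which is expressed in brain, has 3 probes, and they disagreed at 18/1 5 hr. Their first 30 bases are shown for that reason; A_55_P2396446 is annotated to the opposite strand of the other 2.
Dusp8 A_51_P263246, chr7:149267534-149267593, minus strand (mm9): aaagctctgtttttactgtctggtatttaa
Dusp8 A_55_P2103206, chr7:149265961-149266020, minus strand (mm9): attatgtaaatttacctcctgtctgtcatt
Dusp8 A_55_P2396446, chr7:149267032-149267091, plus strand (mm9): agagctacctcatctggctttcaggaaccc
The brightest, A_51_P263246, read 11.76, 11.99, 11.93 and 11.77 in unstimulated neurons and 12.50, 12.66, 11.99 and 12.13 at 18/1 5 hr. The highest unstimulated and the lowest 18/1 5 hr sample both round to 11.99, and the difference was 0.46 ± 0.33 (limma adjusted p = 0.262). A_55_P2103206 moved the other way, from a mean of 10.10 ± 0.16 (SD, n = 4) in unstimulated neurons to 8.62, 8.78, 8.79 and 9.08, all of them lower. The log2 difference was -1.28 ± 0.38 (limma adjusted p = 0.0132 among 23905 probes), and the spots of array 5 were marked as non-uniform.

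Between the patterns at 5 hr, Dusp8 by its brightest probe was lower at 90/5 (11.29, 11.52, 11.85 and 11.66) than at 18/1 by 0.74 (-0.74 ± 0.33; limma adjusted p = 0.0698). This difference passed without array 6 (adjusted p = 0.017), 7 (0.0374) or 8 (0.0434), and was -0.48 without array 5. By A_55_P2103206 it was higher by 1.22 (limma adjusted p = 0.0167), so that no direction can be given for the gene. A_55_P2396446 differed by 0.45 between 18/1 5 hr and unstimulated neurons (limma adjusted p = 0.41), with 10.89 and 11.17 on array 5 and 9.47 and 9.49 on array 6.

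**Figure D2:**
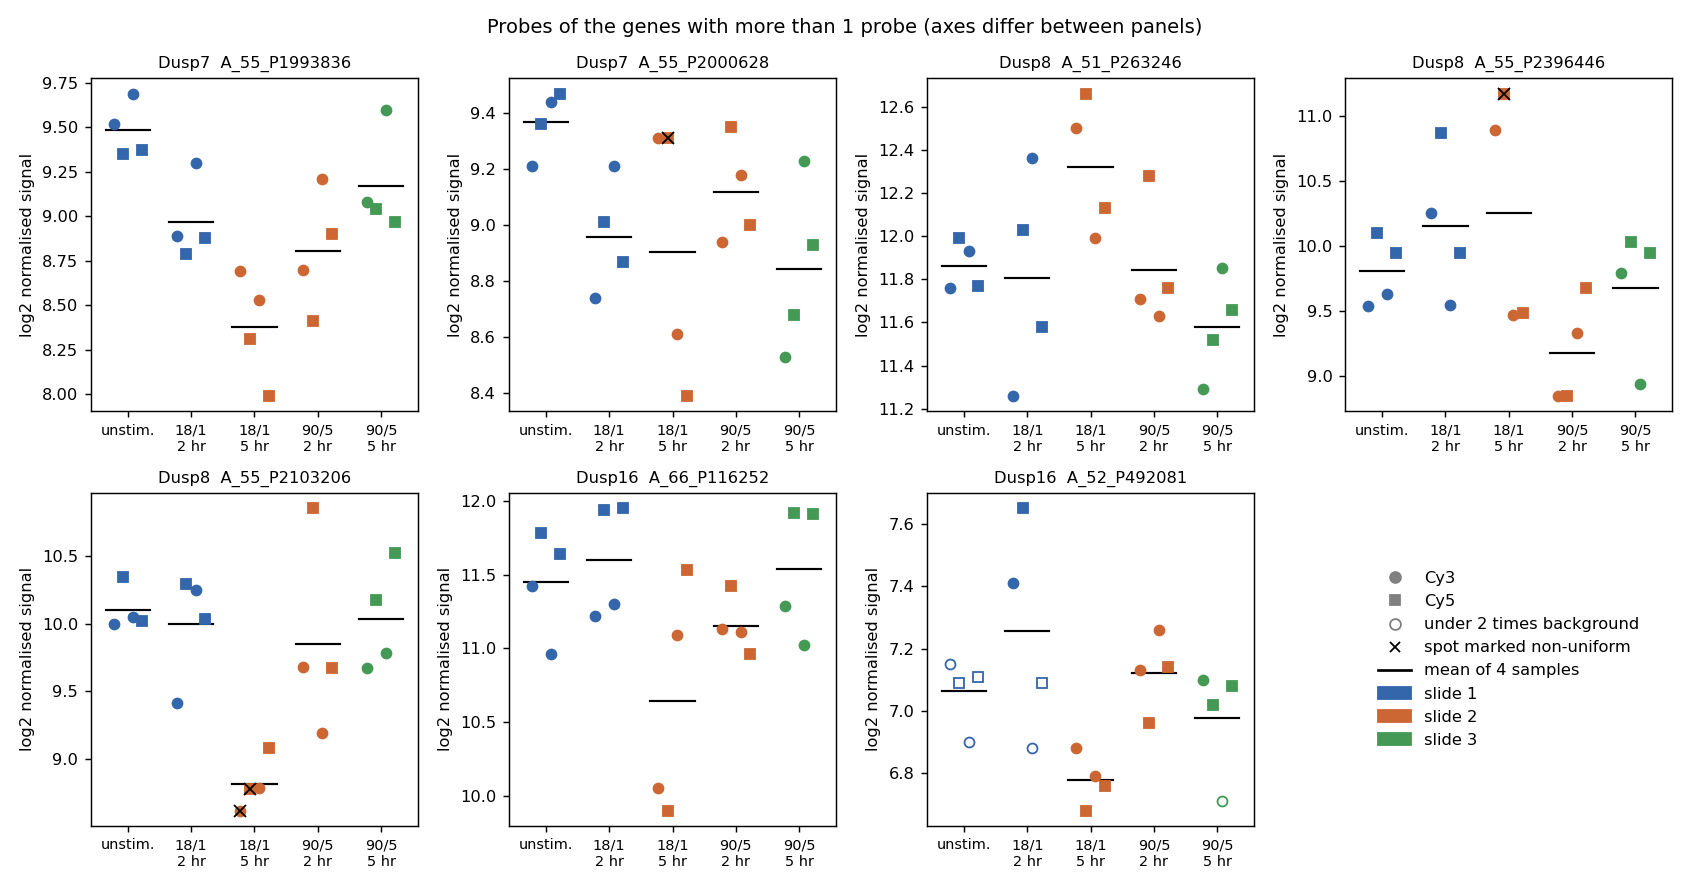
Log2 normalised signal (vertical axis, its range differing between panels) in the 20 samples by condition for each probe of Dusp7, Dusp8 and Dusp16, the members with more than 1 probe. At 18/1 5 hr the Dusp8 probe A_55_P2103206 lies at 8.62 to 9.08, below its unstimulated samples, while A_51_P263246 lies at 11.99 to 12.66.

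Dusp10, a JNK and p38 phosphatase, was read by A_51_P104418 (chr1:185898608-185898667, plus strand, mm9). Its stimulated samples overlapped the unstimulated range in every condition. Its signals were 8.84 to 9.40 in unstimulated neurons, 9.24 to 9.61 at 18/1 2 hr, 8.80 to 9.21 at 18/1 5 hr, 9.02 to 9.83 at 90/5 2 hr and 8.99 to 9.59 at 90/5 5 hr. At 18/1 5 hr its spot was marked non-uniform in the Cy5 sample of array 5. No Dusp10 difference had an unadjusted p under 0.05, and the nearest was between 5 hr and 2 hr of the 18/1 pattern (-0.49 ± 0.24; limma unadjusted p = 0.0553, adjusted p = 0.116).

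Counted by comparison, 18/1 stimulation for 2 hr, the comparison within slide 1, gave no called member. Limma called 0 of the 8 members tested, where 0.0193% of all genes were called under the stricter filter and 0.0213% under the other. At an unadjusted p under 0.05 there were 4, Dusp1, Dusp4 and Dusp6 with higher and Dusp7 with lower signals, beside 0.888% and 0.598% of all genes under the 2 filters. For clustering and for the pathway and transcription factor binding site analyses, the paper selected genes by a fold of 1.4 and a p under 0.05. Its criterion for a regulated gene used a fold cut-off computed for each transcript from its variability. The paper's p-values were corrected over the spots of the same transcript. Neither that cut-off nor this correction was applied here. A fold of at least 1.4 with an unadjusted p under 0.05 was met by 3 members (0 after Benjamini-Hochberg) and by 2.09% and 1.57% of all genes. Dusp4 is among the 4 and had passed the spot filter in stimulated conditions only. All samples were higher than all unstimulated ones for 3 members (2.65% of all genes) and lower for 1 (2.96%). The median difference of the members was 0.40 against 0 for all genes, and the 4 others lay between -0.05 and 0.46.

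After 18/1 stimulation for 5 hr, Dusp14 rose and Dusp7 fell. These 2 calls of 8 stood against 44.4% of all genes called under the stricter filter and 36.8% under the other, so the share of members called was no higher than that of genes in general. Samples did not overlap and were higher for 2 members, Dusp14 and, by its brightest probe, Dusp8 (19.7% of all genes), and lower for 1, Dusp7 (32.7%). Another Dusp8 probe was lower in all 4 samples, as given above. The median difference was 0.25 among members and -0.18 among all genes, and the 5 members with an unadjusted p of 0.05 or more lay between -0.15 and 0.52.

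The 90/5 pattern for 2 hr gave 1 called member of 8, Dusp14, where 6.97% of genes were called under the stricter filter and 5.06% under the other. Dusp14 had all samples higher (11.4% of all genes) and Dusp7 all samples lower (16.6%). The median was 0.16 among members against -0.09 among all genes, and the 6 members other than these ranged from -0.30 to 0.45.

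The 90/5 pattern for 5 hr gave 0 called members by limma, beside 0.0676% and 0.149% of all genes called under the 2 filters. At an unadjusted p under 0.05 there were 2, Dusp4 and Dusp14, which were also the 2 whose samples were all higher (6.63% of all genes), beside 3.69% and 3.23% of all genes at that p. The fold of 1.4 with an unadjusted p was met by 2 (0 adjusted), and by 5.52% and 5.06% of all genes. Leaving slide 2 out of the fit gave a call for Dusp14, while 2.48% and 3.59% of all genes were then called. Dusp4 was past the threshold as well, but without slide 2 it passes the spot filter only through 18/1 2 hr and 90/5 5 hr, where it is highest, and that value is no support. The other 6 members lay between -0.31 and 0.12.

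**Figure D3:**
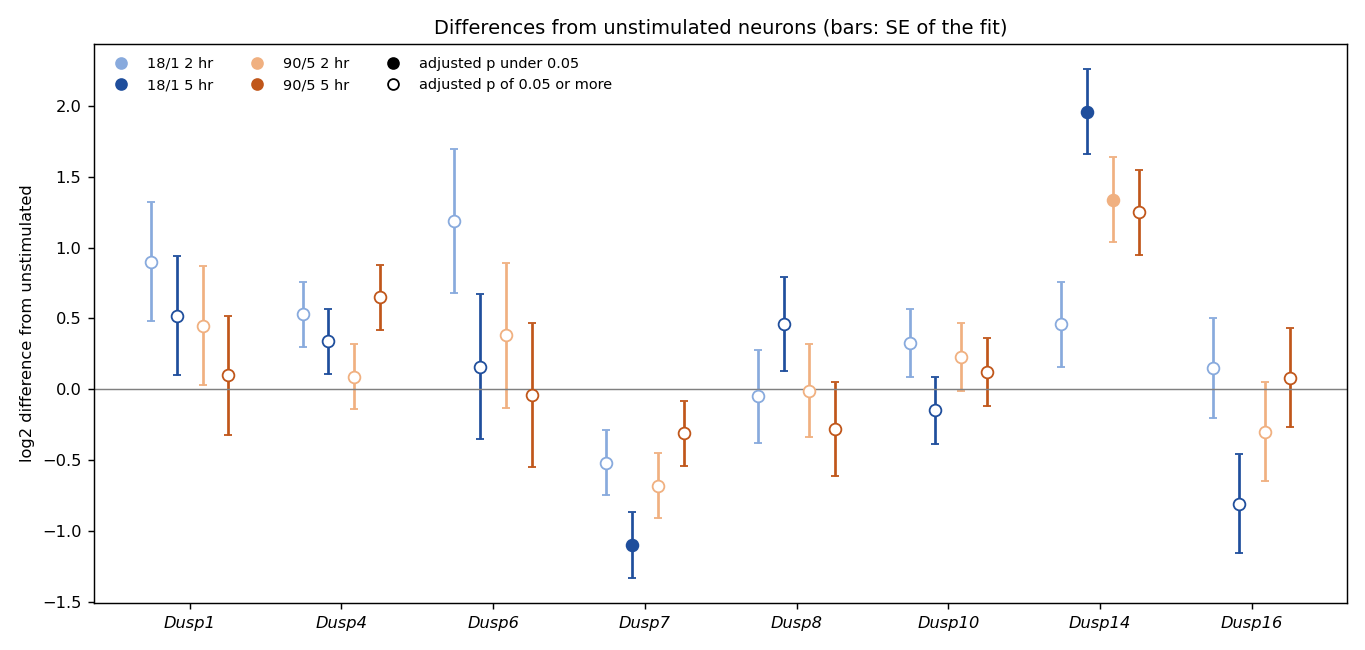
Log2 difference from unstimulated neurons (vertical axis) for the 8 tested MAP kinase phosphatases in the 4 stimulated conditions, with bars for the SE of the fit and filled points for called differences. Dusp14 at 18/1 5 hr (1.96) and 90/5 2 hr (1.34) and Dusp7 at 18/1 5 hr (-1.10) are the called differences, and Dusp6 at 18/1 2 hr (1.19) has a wide SE of 0.51.

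The patterns were also compared with each other. At 2 hr limma called 0 of the 8 members between 90/5 and 18/1, beside 4.96% and 3.95% of all genes under the 2 filters. Dusp14 had an unadjusted p under 0.05 (19.6% and 18.3% of all genes) and was the 1 member that met the fold of 1.4 with it (0 adjusted), beside 16.9% and 16.8% of all genes. The other 7 lay between -0.82 and 0.04. At 5 hr Dusp7 and Dusp16 were higher at 90/5, 2 calls of 8 beside 45.4% and 38.2% of all genes. The Dusp7 call was seen with 1 of its 2 probes. It was lost without array 10 and in the fit on only the conditions compared (limma adjusted p = 0.0516). The Dusp16 call was kept in 19 of the 30 leave-out fits and was lost with its second probe.

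Over time, 3 members were called between 5 hr and 2 hr of the 18/1 pattern, Dusp14 higher and Dusp7 and Dusp16 lower, beside 44% and 36.3% of all genes. Between 5 hr and 2 hr of the 90/5 pattern limma called 0, beside 8.96% and 7.94%; Dusp4, marked well above background in only 1 of the 4 samples at 2 hr, had an unadjusted p under 0.05 (23.2% and 21.9% of all genes) and was the 1 that met the fold of 1.4 with it (0 adjusted), beside 17.2% and 17.6%. Within slide 2, 90/5 at 2 hr against 18/1 at 5 hr gave 0 calls, 0 members at an unadjusted p under 0.05 and 0 with a fold of 1.4 as well, with or without adjustment. In that comparison 12.9% and 8.88% of all genes were called, 30.6% and 27.1% had an unadjusted p under 0.05, 16.6% and 15% met the fold as well, and the 8 members lay between -0.62, for Dusp14, and 0.51.

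The change from 2 hr to 5 hr was itself compared between patterns, as an interaction in the same fit. It differed for Dusp14 by -1.59 ± 0.42 (limma adjusted p = 0.00422), or by -0.77 under median centring (adjusted p = 0.218), where Dusp14 rose with time under 18/1 and its 2 hr and 5 hr samples overlapped under 90/5. For Dusp7 it differed by 0.96 ± 0.33 (limma adjusted p = 0.0211), and for Dusp16 by 1.34 ± 0.49 (adjusted p = 0.03), or 0.67 without array 5 (adjusted p = 0.117). Under median centring these were 1.52 for Dusp7 and 2.13 for Dusp16. With the other Dusp7 probe the value was -0.22, and the call with A_55_P1993836 was lost without array 4 (limma adjusted p = 0.12), 7 (0.0564) or 10 (0.0884). The call for Dusp16 was kept in 20 of 30 such fits, and was lost in 5 of 12 other settings, among them the second probe (adjusted p = 0.449), which was marked well above background in none of the 90/5 2 hr samples. With no colour term and with means of arrays, both calls were lost, with limma adjusted p of 0.0512 and 0.0537 for Dusp7 and 0.0573 and 0.0679 for Dusp16. The difference for Dusp4 was 0.75 ± 0.32 (adjusted p = 0.0751), and passed without array 6 (0.0208) or 7 (0.00731), but it too rests on the 90/5 2 hr samples, of which 1 of 4 was marked well above background. Of all genes in the stricter filter, 44.8% were called for this term, and its conditions lie on all 3 slides, so that slide and condition cannot be told apart.

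**Figure D4:**
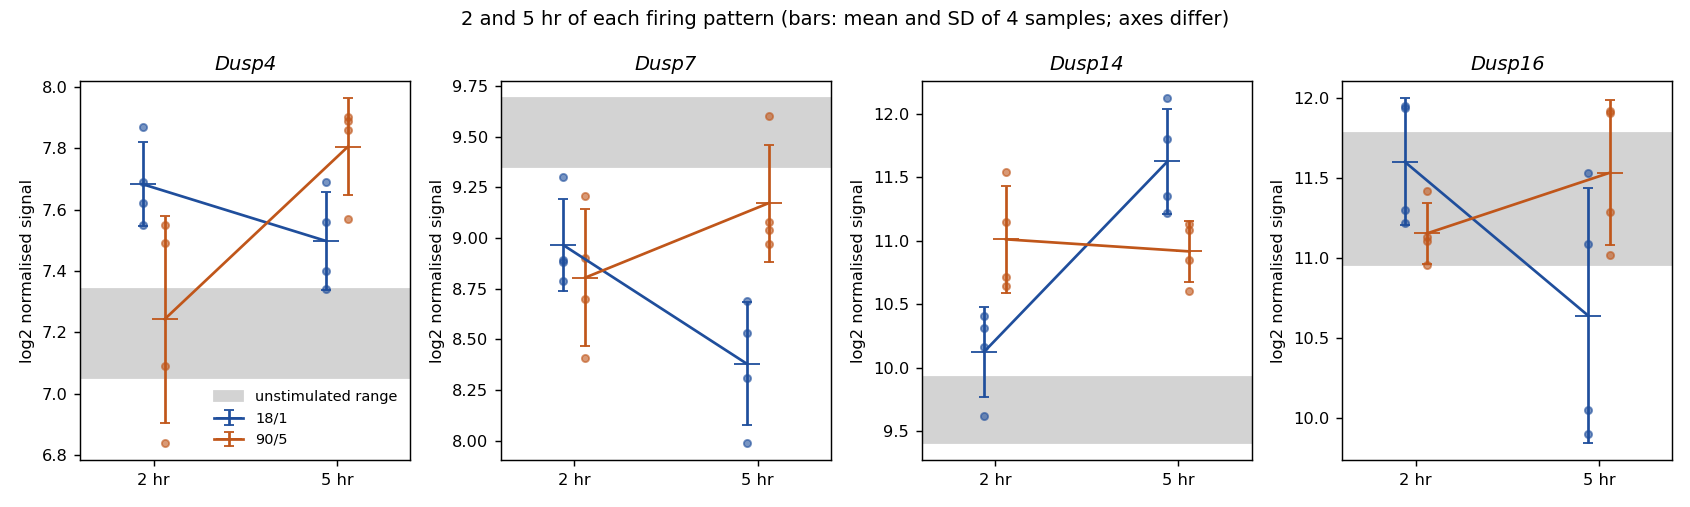
Log2 normalised signal (vertical axis, ranges differing) of Dusp4, Dusp7, Dusp14 and Dusp16 after 2 hr and 5 hr of the 18/1 and the 90/5 pattern, with 1 point per sample, the mean and SD of 4 samples and a grey band for the unstimulated range. Dusp14 goes from 10.13 to 11.62 under 18/1 and from 11.01 to 10.91 under 90/5, while Dusp7 goes from 8.97 to 8.38 and from 8.80 to 9.17.

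Part of the 18/1 5 hr differences depends on how samples are scaled to each other. The median gene differed by -0.23 from unstimulated neurons after the normalisation used here and by -0.81 when samples were only centred on their medians. The Dusp14 difference under such centring was 1.22 in place of 1.96 (limma adjusted p = 0.00723), and that of Dusp16 was -1.52 in place of -0.81, which then passed (adjusted p = 0.0032). Relative to the median gene, Dusp14 was higher by 2.19 in the first case and by 2.03 in the second. Dusp7 was -1.10 and, under centring, -1.47, or -0.87 and -0.66 relative to the same median. Dusp16 was -0.58 and -0.71 relative to it. Under centring alone, Dusp7 and Dusp16 differed from unstimulated neurons by more than Dusp14 did. For 90/5 against 18/1 at 5 hr the median gene moved from 0.23 to 0.93, and Dusp14 was -0.94 and -0.77 relative to it. In that comparison Dusp7 was 0.79 and, under centring, 1.25, which is 0.56 and 0.32 relative to the median gene, and Dusp16 was 0.89 and 1.77, which is 0.66 and 0.84 relative to it. Between 5 hr and 2 hr of the 18/1 pattern the median gene was -0.23 and -0.80. There Dusp7 was -0.59 and -0.92, only -0.36 and -0.12 relative to the median gene, Dusp16 was -0.96 and -1.66 (-0.73 and -0.86 relative to it), and Dusp14 was 1.50 and 0.77 (1.73 and 1.57 relative to it).

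The other genes of the pathway were counted in lists drawn up with earlier results of these data known. Their counts beside the shares of all genes are therefore a description. Among 27 transcription factors responsive to ERK and CREB that were tested, 2 rose after 2 hr of the 18/1 pattern, 8 rose and 4 fell after 5 hr of it, and 8 and 5 rose after 2 hr and 5 hr of 90/5. Of the 27, 15 passed the spot filter in all 20 samples, and they held 1, 5, 3 and 2 of the calls in that order. The other calls are of genes admitted by the filter in 1 condition, which can rest on conditions where a gene is high. Of all genes 44.4% and 36.8% were called at 18/1 5 hr under the 2 filters, 6.97% and 5.06% at 90/5 2 hr, and 0.0193% to 0.149% in the other 2 conditions. Nr4a1, an immediate early nuclear receptor, rose in all 4 conditions, by 4.54 ± 0.37, 4.44 ± 0.37, 4.76 ± 0.37 and 5.51 ± 0.37 in that order. Fos, an AP-1 subunit, rose by 3.37, 4.01, 4.44 and 4.32 (SE 0.44 for each). Egr4 rose by 3.12 at 18/1 5 hr and 2.92 at 90/5 2 hr, and Egr1 rose by 3.18 at 90/5 5 hr. At most 3 rises per list and condition are named. The Egr4 spot was also 4.25 to 11.8 times background at 18/1 2 hr and 28.9 to 63.6 times at 90/5 5 hr. Fos and Egr4 did not pass the spot filter in unstimulated neurons, where their spots were 1.33 to 2.55 and 1.37 to 2.51 times background, although marked as well above it in all 4 samples, so their place among the genes tested rests on the stimulated conditions. The falls at 18/1 5 hr were led by Ets2 (-1.77), Atf3 (-1.41) and Myc (-1.14).

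Of 15 other dual-specificity phosphatases, 4 rose and 1 fell at 18/1 5 hr, 1 rose at 90/5 2 hr, and limma called 0 at 18/1 2 hr or 90/5 5 hr. Those at 18/1 5 hr included Dusp23 (1.38), Dusp11 (1.21) and Dusp3 (0.73), a small phosphatase of ERK and JNK, which rose, and the pseudophosphatase Styx, which fell (-1.57). Ssh3, a cofilin phosphatase, rose by 0.74 at 90/5 2 hr. Among 17 inhibitors of Ras and ERK signalling of other kinds, 4 rose and 1 fell at 18/1 5 hr, and 1 rose and 1 fell at 90/5 2 hr. Spry4, a Sprouty inhibitor of receptor signalling, rose by 3.00 ± 0.47 at 18/1 5 hr and 2.06 ± 0.47 at 90/5 2 hr, whereas Spred2, which inhibits Raf activation, fell (-1.74 and -1.93). The Spry4 spot was marked non-uniform in 1 sample of each of these conditions and so passed the spot filter in neither. At 18/1 5 hr Spred2 and Dusp11 did not pass it either, each with such marks in 2 of the 4 samples.

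At 18/1 5 hr, where 44.4% and 36.8% of all genes were called under the 2 filters, 2 of 13 MAP kinases rose and 2 fell, 3 of 7 MAP kinase kinases fell, 2 of 25 Ras, Raf and upstream kinases rose and 6 fell, 1 of 11 kinases activated by MAP kinases rose and 5 fell, and 3 of 7 scaffolds fell. Mapk14, which encodes p38 alpha, rose (1.85, with 1 of 4 samples marked non-uniform, so that its spot did not pass the filter there) and Mapk8, which encodes JNK1, fell (-1.11). The other MAP kinase that rose was Mapk4 (1.52), marked non-uniform in 3 of these 4 samples and 1.21 to 1.67 times background without stimulation. No MAP kinase that passed the filter in all 20 samples rose. Map2k4 (-2.61) and Map2k7 (-1.58), which activate JNK, and Map2k2 (-1.05), which activates ERK, fell. The kinase activated by MAP kinases that rose was Mknk1 (1.02), marked non-uniform in 3 of the 4 samples. Ksr2, a Raf-related scaffold, rose by 2.26 at 18/1 5 hr and 2.34 at 90/5 2 hr, and the latter was the 1 gene of these 5 lists that limma called against unstimulated neurons outside 18/1 5 hr. Its spots were marked non-uniform in 4 and 2 of the 4 samples of these conditions. Summed over the 8 lists, 18/1 stimulation gave 2 calls among 122 genes by 2 hr and 46 by 5 hr, and 90/5 stimulation gave 12 and 5, to be read against the shares of all genes given above. These totals include genes admitted by the filter in 1 condition only. Under quantile normalisation and under median centring the list genes named here kept their direction in all 4 conditions. Dusp3 (limma adjusted p = 0.0526 and 0.285), Ssh3 (0.0663 and 0.147) and Mknk1 (0.0584 and 0.335) were no longer called under either. Nor was Dusp23 called under median centring (0.189), or Egr1 at 90/5 5 hr under quantile normalisation (0.0517).

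**Figure D5:**
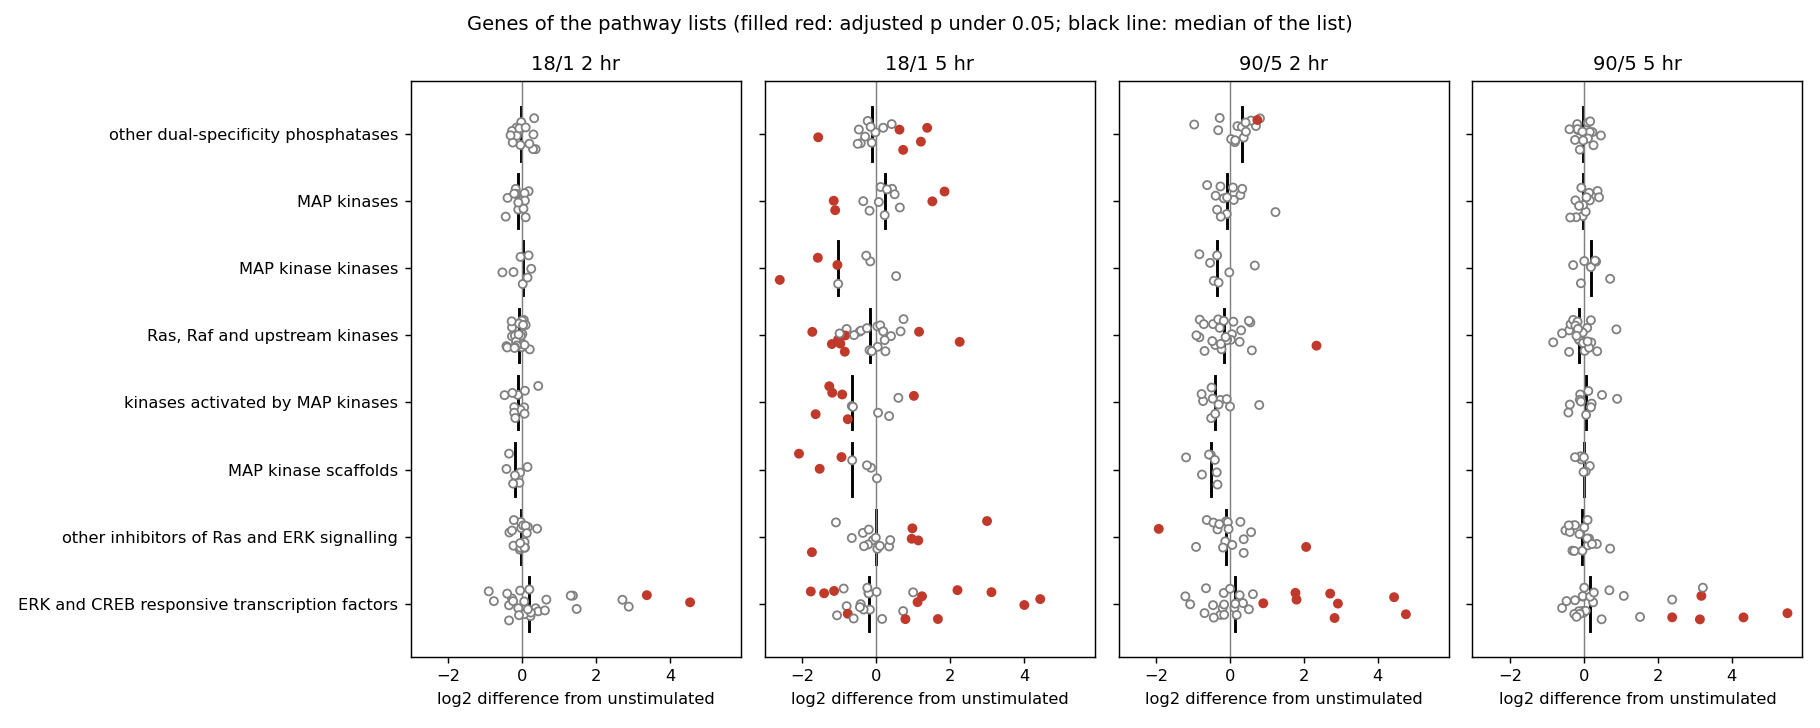
Log2 difference from unstimulated neurons (horizontal axis) for the tested genes of the 8 pathway lists (rows) in the 4 stimulated conditions (panels), with 1 point per gene, called genes filled in red and the list's median as a black line. Called genes are most frequent at 18/1 5 hr, on both sides of 0, and the largest rises in each panel are of ERK and CREB responsive transcription factors.

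Genes whose signals ran most like a member over the 20 samples were looked up among the 10354 other genes that passed in all samples. For Dusp14 these were Gm13889 (Pearson r = 0.91), 2410127L17Rik (0.90) and 1200016B10Rik (0.90). Dusp16 ran most like Dap (0.95), Lhfp (0.92) and Cdc14b (0.92), Dusp7 most like Apba3 (0.87), Ercc2 (0.86) and Asb6 (0.84), and Dusp8 most like Brsk1 (0.88), Mtss1l (0.86) and Chd3 (0.85). The samples share arrays and slides, so these values are a description.

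Promoters were available from RefSeq (GRCm38.p6) for 8 of the 9 members, Dusp4 being the one without an entry. The 250 bases before each start were searched on both strands for the cyclic AMP response element (CRE) TGACGTCA, the shorter element TGACG, the AP-1 motif TGANTCA, the Egr motif GCGNGGGCG, the Ets motif CCGGAAG, the CArG box and the NF-kappaB site; a full CRE also holds the shorter element. Dusp1 held 1 CRE, 143 to 136 bases before its start, and Dusp8 held 2, the nearer of them 63 to 56 bases before its start. Of all 32851 promoters of that length, 1.55% held a CRE. The sequences of these 2 are shown for their CREs and that of Dusp14 because its signal rose most. Capitals mark motif matches.
Dusp1, chr17:26508473-26508722, minus strand: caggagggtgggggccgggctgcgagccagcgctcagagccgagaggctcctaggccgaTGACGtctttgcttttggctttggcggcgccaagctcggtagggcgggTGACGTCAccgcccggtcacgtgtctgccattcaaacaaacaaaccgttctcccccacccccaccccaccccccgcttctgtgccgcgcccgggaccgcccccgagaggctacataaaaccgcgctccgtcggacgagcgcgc
Dusp8, chr7:142095285-142095534, minus strand: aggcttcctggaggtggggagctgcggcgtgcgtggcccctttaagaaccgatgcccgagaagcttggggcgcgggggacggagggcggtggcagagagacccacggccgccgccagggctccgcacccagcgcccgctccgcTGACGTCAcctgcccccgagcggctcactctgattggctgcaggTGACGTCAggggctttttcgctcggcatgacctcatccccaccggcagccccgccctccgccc
Dusp14, chr11:84068358-84068607, minus strand: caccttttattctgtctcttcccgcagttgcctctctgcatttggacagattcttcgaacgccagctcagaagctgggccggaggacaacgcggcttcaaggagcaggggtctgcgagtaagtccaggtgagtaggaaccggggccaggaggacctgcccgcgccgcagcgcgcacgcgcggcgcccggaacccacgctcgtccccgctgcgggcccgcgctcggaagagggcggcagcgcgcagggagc
Dusp5 held 2 CArG boxes, at 82 to 73 and 72 to 63 bases before its start (1.47% of all promoters held one), and its signal was not well above background. The shorter element was found in Dusp1, Dusp5, Dusp8 and Dusp16 (17.8% of all promoters), an NF-kappaB site in Dusp5 and Dusp16 (7.91%) and an Egr motif in Dusp16 (4.7%). No member held an AP-1 (6.75%) or Ets motif (6.91%). None of these letters occurred in the windows of Dusp6, Dusp7, Dusp10 or Dusp14. A match is a description of the sequence and was not set against binding.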

How the data were processed

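Expression was measured in 20 samples on 10 two-colour arrays. The authors deposited scanner output that was not normalised, holding in each colour a mean intensity per spot and a median intensity of the local background, extracted with Agilent Feature Extraction 10.7.1.1 (slide 1) or 10.7.3.1. The software was R 4.3.3, limma (3.58.1), data.table (1.17.8) and statmod (1.5.0) (normexp background correction with an offset of 50, loess within arrays with control spots at weight 0, Aquantile between arrays). Figures and promoter searches used Python 3.11.15, numpy 2.4.6 and matplotlib 3.10.9. In total 72 further per-colour columns of each array were not used.

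The fit held condition means, a colour term and the array as a random block (within-array correlation 0.53 under the filter in all 20 samples and 0.64 under that in 1 condition), with all 20 samples sharing the estimate of spread. The stricter spot filter follows the methods in asking for at least 2 times background in all 20 samples. The non-uniform mark stood for the local corruption that the methods exclude. The filter in 1 condition is looser than the methods. For a gene with several probes, the one with the highest mean signal among those that passed the spot filter was used. For Dusp7 this left out the brighter probe, A_55_P2000628, which had 1 non-uniform spot and is taken under the filter in 1 condition. Named genes were all 9 members, the 3 genes most like each member that passed in all samples, and up to 3 called genes with the largest rise and fall per list and condition. The members and lists were chosen with earlier results of these data known. The scripts were tested on simulated data. Precision is limited by the number of arrays. Alternatives covered background correction, scaling, filters, probes, the terms of the fit, the t-test of the methods and leaving out each sample or array. Same-numbered unstimulated and 18/1 2 hr samples deviated together from their group means (r = 0.41 to 0.72 over genes). Their numbers come from the labels and also fix the colour. No colour term was taken out of these deviations, so they cannot show whether same-numbered samples are pairs. The authors' text names another version of the extraction software.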

Additional observations from a re-analysis of the deposited data

Results flagged for a closer look

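Dixon's ratio (the gap of the end sample to its nearest neighbour over the range of the 4 samples) was over its 95% limit in 2 of the 45 sets of 4 samples checked, and chance gives about 1 in 20. Dusp4 at 90/5 5 hr had a ratio of 0.877, with 1 sample at 7.57 and the others from 7.86 to 7.90. Dusp7 at 90/5 5 hr had a ratio of 0.837, with 1 sample at 9.60 and the others from 8.97 to 9.08.

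The change from 2 hr to 5 hr differed between the 90/5 and the 18/1 pattern, by the interaction term, for Dusp7 (0.96), Dusp14 (-1.59) and Dusp16 (1.34). When samples were only centred on their medians, the value for Dusp14 was -0.77 (limma adjusted p = 0.218). Each of these terms includes 18/1 5 hr samples of slide 2, and slide and condition cannot be told apart.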

How the results depend on the processing

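The rise of Dusp14 and the fall of Dusp7 at 18/1 5 hr were called in all 30 fits that left out 1 sample or array, with differences of 1.62 to 2.30 and -1.22 to -0.98. Over those fits the number of members called against unstimulated neurons was 0 to 0 at 18/1 2 hr, 2 to 3 at 18/1 5 hr, 0 to 2 at 90/5 2 hr and 0 to 1 at 90/5 5 hr. Between 90/5 and 18/1 it was 0 to 2 at 2 hr and 0 to 4 at 5 hr, over time 1 to 4 for 18/1 and 0 to 1 for 90/5, and 0 to 2 within slide 2. Shares of all genes called were counted only for the 2 spot filters, leaving out slide 2 and, in some comparisons, the unadjusted t-test. Member counts in the leave-out fits and under the other settings of this section therefore cannot be set against genes in general.

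The choice of probe changed Dusp7, Dusp8 and Dusp16. The filter in 1 condition, no spot filter and the background rule alone (chosen after seeing the data) all take A_55_P2000628, and Dusp7 at 90/5 5 hr against 18/1 5 hr was then -0.06 and its interaction -0.22. These settings left 1 member called at 18/1 5 hr and 0 between patterns at 5 hr, where Dusp16 was lost too (adjusted p = 0.0534 to 0.127). The 2 filter settings left 1 called between times of 18/1, and the background rule 2. No spot filter also gave 0 at 90/5 2 hr, and 1, 27 and 5 list genes at 18/1 2 hr, 18/1 5 hr and 90/5 2 hr. Dusp8 between patterns at 5 hr was 0.01 and Dusp14 was 0.16 under median centring, which gave 2 calls within slide 2, and Dusp8 was 1.22 with A_55_P2103206.

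Without the array block, calls were 2 at 90/5 2 hr, 1 at 90/5 5 hr, 1 and 4 between patterns at 2 and 5 hr, 5 and 1 over time for 18/1 and 90/5, and 1 within slide 2. Means of arrays gave 0 at 90/5 2 hr and 1 over time for 18/1. No colour term gave 1 between patterns at 5 hr and 1 over time for 18/1. Fits on only the 2 conditions compared gave 2 at 90/5 5 hr, 0 between patterns at 5 hr and 1 over time for 18/1, and leaving out slide 2 gave 2 at 90/5 5 hr. Both counts of 2, and that of the unadjusted t-test at 90/5 5 hr, include Dusp4. It passed the spot filter in stimulated conditions only, so its value there is no support. The t-test of the methods took 3 at 18/1 2 hr, 2 at 90/5 2 hr, 2 at 90/5 5 hr, 1 between patterns at 2 hr and 1 over time for 90/5 unadjusted, and after Benjamini-Hochberg 0 at 90/5 2 hr, 0 between patterns at 5 hr and 1 over time for 18/1. Apart from the values of Dusp7, Dusp8 and Dusp16 that change with the probe, the cause was not tested.

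Replicate numbers could be used in 3 conditions. Same-numbered samples also share a colour, so their correlations cannot show whether they are pairs. For 90/5 5 hr, r was -0.05 to 0.48 against unstimulated samples. Of all 12 samples, 10 correlated best with a sample of their own number in another condition. With the replicate number as a block, 0 members were called at 18/1 2 hr and 2 at 90/5 5 hr, Dusp4 (0.65, adjusted p = 0.00885, admitted by the filter in stimulated conditions only) and Dusp14 (1.25, adjusted p = 0.00569). The share of all genes called under this block was not counted, so these counts cannot be set against genes in general. Each condition has 2 arrays only, and comparisons between slides carry any difference between the slides.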
